A study of Rattus norvegicus with 6 samples.

Results

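Tubulin isotypes are the alternative alpha- and beta-tubulins from which microtubules are built, and 10 of their genes were followed in cultured rat vascular smooth muscle cells. The genes were chosen by symbol, 4 for alpha-tubulins (Tuba1a, Tuba1b, Tuba1c and Tuba4a) and 6 for beta-tubulins (Tubb2a, Tubb2b, Tubb3, Tubb4b, Tubb5 and Tubb6). All 10 were among the 18631 genes of the deposited tables, and 9 passed the filter on low counts that left 13423 genes for testing. Tubb2b did not pass. Polyadenylated RNA was sequenced from 3 libraries labelled MIAT knockdown and 3 titled Scr with a WT genotype label, called Scr control here. MIAT is a long noncoding RNA. Small interfering RNAs together with antisense oligonucleotides, 50 nM in all, acted for 72 h. This treatment text stands on all 6 libraries, and what the Scr control cells received is not stated. MIAT itself was not analysed here, so the groups go by their labels.

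An alpha- and a beta-tubulin form the dimer that adds to and leaves microtubule ends. Microtubules carry cargo in resting cells and form the spindle in dividing cells, and isotypes differ mostly in the charged tail at the C-terminus. Cells also control tubulin at the level of its mRNA, since excess dimer leads to decay of tubulin mRNAs that are being translated.

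Total counts lay between 17793811 and 20121161 per library. The leading principal component, with 44.0% of the variance, followed the library numbers shared by both groups. Control library 3 lay farthest along it, at 36.4, against 15.4 for knockdown library 3 and -23.6 to -2.73 for the other 4. The second component, with 27.0% of the variance, separated the groups, at 12.6 to 17.8 in knockdown and -21.0 to -11.1 in control libraries. Smooth muscle markers were present, with Tagln at 3000.5 and Acta2 at 2298 CPM on average in knockdown libraries. Control libraries had 3057 and 2715 CPM. The 8 listed markers summed to 5265 to 7656 CPM in knockdown and 5952 to 7629 CPM in control libraries. In the fit with the library number as a block, given below, Myh11 and Lmod1 were lower. Their log2 fold changes were -0.51 and -0.30 (edgeR, adjusted p = 0.0162 and 0.0372), and the other listed smooth muscle markers did not pass. Des averaged 0.457 CPM in knockdown and 0.480 CPM in control libraries. The endothelial list summed to 4.93 to 6.30 CPM in knockdown and 5.84 to 10.7 CPM in control libraries, and the leukocyte list to 22.3 to 26.5 CPM in knockdown and 21.6 to 35.0 CPM in control libraries. In these lists and the neuronal one, the defining markers Cdh5, Ptprc and Rbfox3 did not exceed 0.0561 CPM, 0.0521 CPM and 0.112 CPM, while other members were higher, with Kdr up to 7.60 CPM, Cd14 up to 14.4 CPM and Stmn2 up to 94.2 CPM. The 6 fibroblast markers summed to 1972 to 2155 CPM in knockdown libraries and 2445 to 3322 CPM in control libraries, and the 5 Schwann cell markers to 7.08 to 8.57 CPM in knockdown and 9.07 to 11.6 CPM in control libraries. Neither list overlapped between the groups, and their part in the tubulin values was not tested. In the block fit, Pi16 of the fibroblast list did not pass, while Pdgfra, Lum, Col15a1, Dpt and Dcn were lower. Their log2 fold changes were -0.57, -0.55, -0.50, -0.63 and -0.34 (edgeR, adjusted p = 0.00129, 0.00179, 0.00341, 0.0290 and 0.0299). Kdr of the endothelial list was lower too, at -1.02 (edgeR with the block, adjusted p = 0.0148). In such bulk RNA, fewer cells of a kind and less RNA per cell cannot be told apart.

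The cells used a mixture led by Tubb5, with 3 alpha-tubulins and 2 further beta-tubulins at a similar level below it. On the length-scaled FPKM scale, Tubb5, the main beta-tubulin of dividing cells, averaged 545 ± 18.2 FPKM in knockdown libraries and 475 ± 31.3 FPKM in control libraries (SD, n = 3 each). It stood above every other isotype in 6 of 6 libraries. Below it, Tuba1b averaged 307 ± 30.0 FPKM in knockdown and 251 ± 30.3 FPKM in control libraries. Tuba1c averaged 283 ± 40.2 FPKM in knockdown and 237 ± 67.5 FPKM in control libraries, and Tuba1a 232 ± 41.9 FPKM in knockdown and 234 ± 49.5 FPKM in control libraries. These 3 alpha-tubulins overlapped in their ranges and changed order between libraries, with Tuba1b above Tuba1c in 3 of 6 libraries and Tuba1c above Tuba1a in 4 of 6. Tubb6 was at 246 ± 27.6 FPKM in knockdown and 207 ± 36.8 FPKM in control libraries, and Tubb4b at 236 ± 21.97 FPKM in knockdown and 184 ± 39.9 FPKM in control libraries. Tubb6 lay above Tubb4b in 6 of 6 libraries although their ranges overlapped, and Tuba1a lay above Tubb6 in 2 of 6.

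A lower tier held Tubb2a, Tubb3 and Tuba4a. Tubb2a, a beta-tubulin best known from brain, averaged 51.4 ± 10.1 FPKM in knockdown libraries and 49.8 ± 12.8 FPKM in control libraries. Tubb3, the beta-tubulin used as a marker of neurons, was at 38.4 ± 14.7 FPKM in knockdown and 49.7 ± 32.3 FPKM in control libraries. Tuba4a, which unlike most alpha-tubulins ends without an encoded tyrosine, was at 36.3 ± 6.13 FPKM in knockdown and 30.8 ± 11.1 FPKM in control libraries. The ranges of these 3 overlapped, and neighbours kept their order in 4 of 6 libraries. Tubb2b, the close relative of Tubb2a, had 18 counts in the knockdown libraries together and 27 in the control libraries together, 2 to 12 per library, and no difference can be drawn from it. The other 5 alpha- and beta-tubulin genes of the table summed to between 0.368 and 0.872 FPKM in knockdown libraries and between 0.223 and 0.841 FPKM in control libraries.

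**Figure D1:**
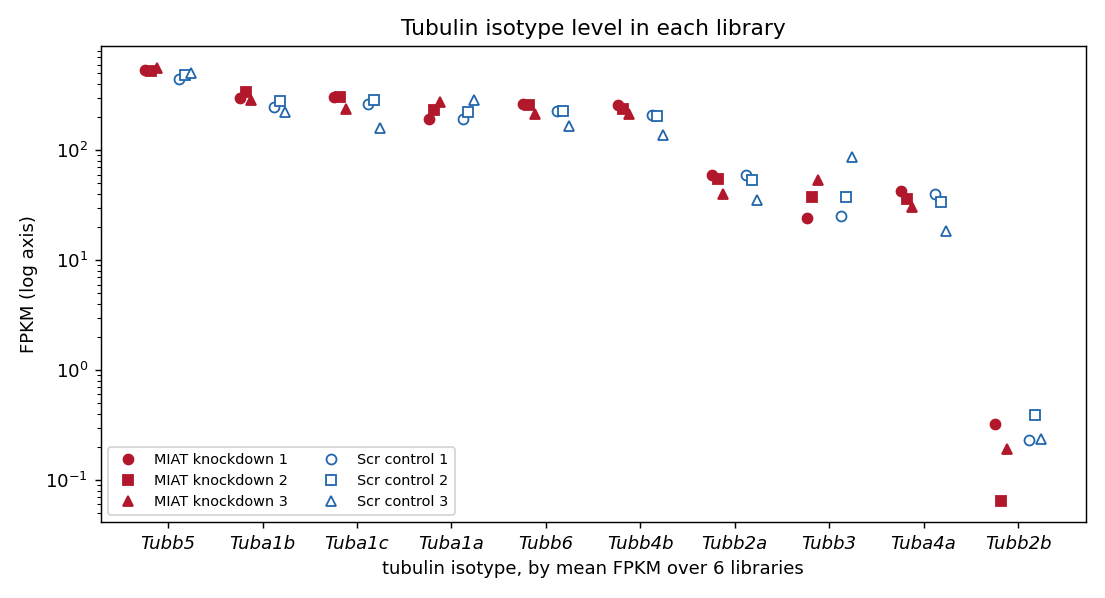
FPKM on a log axis for the 10 isotypes, ordered by their mean over 6 libraries, with 1 point per library. Filled red points are MIAT knockdown and open blue points Scr control, and Tubb5 leads with 545 and 475 FPKM on average.

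Between the groups the isotypes differed little. Counts were compared with edgeR's quasi-likelihood test with Benjamini-Hochberg adjustment over all 13423 genes. The labels give no pairing, and the fit set as the main one had no block. Same-numbered libraries deviated together, so the fit was also made with the library number as a block, as an alternative. The words "rose" and "fell" are used where the adjusted p of this alternative, blocked fit was under 0.05. With the block 10.5% of all tested genes rose and 11.1% fell, 21.6% in all. Of the 9 tested isotypes, 2 rose, 0 fell and 7 did not pass, which is 22.2% against the background of 21.6%. The median log2 fold change was 0.15 over the isotypes and -0.0090 over all tested genes. Without the block 0 of the 9 isotypes and 0 of all genes passed, with 0 isotypes and 2576 genes (19.2%, 10.4% being higher) at an unadjusted p under 0.05. DESeq2 without the block called 699 genes (5.42% of the 12898 to which it gave an adjusted p) and 0 isotypes. Separate cultures are not named in the labels, so the p-values reflect the spread among these 6 samples and no more, and that spread may be technical.

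The pair that rose consisted of an alpha- and a beta-tubulin, Tuba1b and Tubb4b. Their promoter windows are shown because these were the only isotypes called in the block fit. Each runs from 250 bases before to 50 bases after the RefSeq start on GRCr8, Tuba1b at chr7:131972538-131972837 and Tubb4b at chr3:28438406-28438705, both on the minus strand. Capitals mark CCAAT and TATAA on either strand.
Tuba1b: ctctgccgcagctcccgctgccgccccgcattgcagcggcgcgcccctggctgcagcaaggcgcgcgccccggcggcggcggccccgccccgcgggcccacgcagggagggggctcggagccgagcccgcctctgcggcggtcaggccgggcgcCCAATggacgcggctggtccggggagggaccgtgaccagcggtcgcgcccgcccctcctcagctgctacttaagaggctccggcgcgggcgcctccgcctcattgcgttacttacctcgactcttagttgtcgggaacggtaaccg
Tubb4b: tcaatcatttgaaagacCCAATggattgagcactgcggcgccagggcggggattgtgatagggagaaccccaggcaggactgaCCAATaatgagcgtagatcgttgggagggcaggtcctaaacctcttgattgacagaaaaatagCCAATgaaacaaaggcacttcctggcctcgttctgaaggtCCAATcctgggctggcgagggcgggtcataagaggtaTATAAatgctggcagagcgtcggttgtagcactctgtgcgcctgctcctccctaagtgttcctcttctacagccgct
Tuba1b holds 1 CCAAT, 96 bases before the start, and no TATAA. Tubb4b holds 4 CCAAT, and 1 TATAA that lies 27 bases before the start.

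Tuba1b, a widely expressed alpha-tubulin, had 453, 539.6 and 442 CPM in knockdown libraries 1 to 3, against 404, 471 and 387 CPM in control libraries 1 to 3. The groups overlapped, since control library 2 exceeded knockdown libraries 1 and 3, but each knockdown library was above its same-numbered control. The pair differences of 0.17, 0.20 and 0.19 on the log2 scale were the most even of the family. With the block its log2 fold change was 0.18 (SE 0.052, edgeR adjusted p = 0.0374), a 1.14-fold rise, and without the block 0.19 (SE 0.12, adjusted p = 0.440).

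Tubb4b, a widely expressed beta-tubulin that also serves in cilia, had 378, 359 and 319.6 CPM in knockdown libraries, against 327, 326 and 229.5 CPM in control libraries. Control library 3 was lowest, and knockdown library 3 lay below the other 2 control libraries, so the groups overlapped. Pair differences were 0.21, 0.14 and 0.48. With the block its log2 fold change was 0.27 (SE 0.072, edgeR adjusted p = 0.0291), a 1.21-fold rise, and without the block 0.26 (SE 0.15, adjusted p = 0.402).

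Both calls were narrow, in a fit that on simulated data made false calls more often than its nominal rate. With the gene-length correction and block neither passed in edgeR, at log2 fold changes of 0.12 for Tuba1b (adjusted p = 0.223) and 0.21 for Tubb4b (adjusted p = 0.0621), and Tuba1b did not pass with the block in DESeq2 (adjusted p = 0.105) or with DESeq2 size factors (0.0519). Neither passed in the edgeR block fit without pair 1 (0.20 and 0.31, adjusted p = 0.172 and 0.0643) or without pair 2 (0.18 and 0.34, adjusted p = 0.230 and 0.0817), and without pair 3 both passed, with Tubb4b at 0.17.

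**Figure D2:**
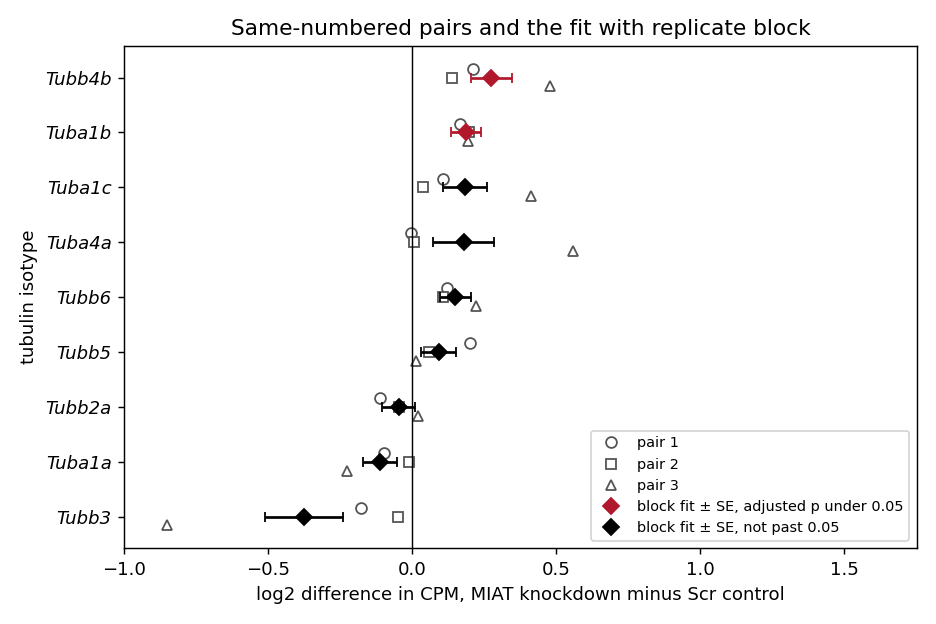
Log2 difference in CPM, MIAT knockdown minus Scr control, for the 9 tested isotypes. Open symbols are the 3 same-numbered pairs and diamonds the edgeR block fit with its standard error, red for Tubb4b at 0.27 and Tuba1b at 0.18, which passed an adjusted p of 0.05.

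Among the other beta-tubulins, Tubb5 and Tubb6 were higher in every pair without passing the test. Tubb5 had 1225, 1243 and 1306 CPM in knockdown libraries and 1065, 1193 and 1295 CPM in control libraries, so that control libraries 1 and 2 lay below all knockdown libraries and control library 3 within them. Its log2 fold change was 0.09 (SE 0.060, edgeR with the block, adjusted p = 0.306), with pair differences of 0.20, 0.06 and 0.01. It came to 0.04 without pair 1 and, without the block, to 0.01 without control library 1. Tubb6, a minor beta-tubulin of many tissues, had 439.9, 442 and 362 CPM in knockdown libraries and 405, 411 and 310.4 CPM in control libraries. The lowest value of each group was library 3, and the log2 fold change was 0.15 (SE 0.055, edgeR with the block, adjusted p = 0.0857).

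Tubb2a had 89.9, 86.4 and 62.0 CPM in knockdown libraries, against 97.1, 89.3 and 61.3 CPM in control libraries. The groups lay on top of each other, with pair differences of -0.11, -0.05 and 0.02 and a log2 fold change of -0.05 (edgeR with the block, adjusted p = 0.593), which was 0.06 with total count scaling. Of the remaining alpha-tubulins, Tuba1c had 443, 463 and 351 CPM in knockdown libraries and 412, 451 and 264 CPM in control libraries, and its log2 fold change was 0.18 (SE 0.076, edgeR with the block, adjusted p = 0.119). Its pair differences were 0.11, 0.04 and 0.41, and the value came to 0.07 without pair 3 and, without the block, to -0.04 without control library 3. Tuba4a had 99.0, 86.4 and 71.9 CPM in knockdown libraries and 99.4, 86.1 and 48.9 CPM in control libraries. Its first 2 pairs differed by -0.0061 and 0.0054, and pair 3 by 0.56, so that the log2 fold change of 0.18 (edgeR with the block, adjusted p = 0.259) came to -0.0036 without pair 3.

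Tuba1a and Tubb3, both known chiefly from neurons, had the lowest fold changes. Their windows are shown beside those of the called pair because these genes ran against most of the family across libraries, as described further on. Tuba1a lies at chr7:131995770-131996069 on the minus strand and Tubb3 at chr19:68365437-68365736 on the plus strand of GRCr8 (RefSeq), with the same marks in capitals.
Tuba1a: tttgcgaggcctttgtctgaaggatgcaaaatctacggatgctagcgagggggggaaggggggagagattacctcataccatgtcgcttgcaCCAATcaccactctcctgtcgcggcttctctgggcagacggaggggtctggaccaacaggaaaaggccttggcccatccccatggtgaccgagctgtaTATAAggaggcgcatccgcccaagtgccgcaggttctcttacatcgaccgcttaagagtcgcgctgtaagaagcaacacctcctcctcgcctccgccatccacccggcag
Tubb3: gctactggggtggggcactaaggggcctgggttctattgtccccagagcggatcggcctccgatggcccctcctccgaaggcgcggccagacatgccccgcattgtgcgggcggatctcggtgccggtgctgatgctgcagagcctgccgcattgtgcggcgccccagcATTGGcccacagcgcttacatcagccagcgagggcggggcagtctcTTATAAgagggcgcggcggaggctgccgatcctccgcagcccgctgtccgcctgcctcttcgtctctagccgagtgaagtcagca
Both hold 1 CCAAT, 158 bases before the start in Tuba1a and 81 in Tubb3. A TATAA lies 60 bases before the start in Tuba1a, and in Tubb3 a TTATA and a TATAA overlap at 35 and 34 bases.

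Tubb3 had 40.0, 65.6 and 90.8 CPM in knockdown libraries, against 45.2, 67.9 and 164 CPM in control libraries. Control library 3 stood far above the other 5, while pairs 1 and 2 differed by -0.18 and -0.05 and pair 3 by -0.85. Its log2 fold change was -0.38 (SE 0.14, edgeR with the block, adjusted p = 0.0799), and -0.11 without pair 3. It was -0.50 without the block and turned to 0.21 without control library 3. Of the neuronal markers, Stmn2 was at 81.2 CPM in knockdown and 88.0 CPM in control libraries on average and made up most of the list, whose sums were 75.4 to 91.8 CPM in knockdown and 90.8 to 98.1 CPM in control libraries. Rbfox3 was near 0, as given above.

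Tuba1a had 292, 366 and 429 CPM in knockdown libraries, against 312, 369 and 502 CPM in control libraries. It too was highest in control library 3, with pair differences of -0.10, -0.01 and -0.23 and a log2 fold change of -0.11 (edgeR with the block, adjusted p = 0.212). Without the block it was -0.12, and 0.09 without control library 3. Over the 9 tested isotypes, 5 were higher in 3 of 3 pairs, or 55.6% against 28.0% of all tested genes. Another 2, Tuba1a and Tubb3, were lower in 3 of 3, and the share of all genes that were so was not counted. In 0 of the 10 did the groups separate without overlap, against a background of 14.2% of genes entirely higher and 11.8% entirely lower. Pair 3 held the largest difference in 6 of the 9.

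Most isotypes had their highest or lowest level in library 3 of both groups, and not all in the same direction. The share of all genes with such a pattern was not counted, and the leading component followed the library number over all genes. Tuba1a, Tubb3 and Tubb5 were highest in library 3 of both groups. Tuba1b, Tuba1c, Tuba4a, Tubb2a, Tubb4b and Tubb6, 6 of the 10, were lowest in library 3 of both groups. Of these, Tuba1b, Tuba1c and Tubb6 were highest in library 2 of both groups, so they did not follow the number in order. For Tubb3 the log2 difference between library 3 and library 1 was 1.18 among knockdown libraries and 1.86 among control libraries. The same difference was 0.55 and 0.69 for Tuba1a and only 0.09 and 0.28 for Tubb5. It was -0.46 in knockdown and -1.02 in control libraries for Tuba4a, and -0.34 and -0.64 for Tuba1c. Tubb2a differed by -0.53 and -0.66 and reached nearly the same level in both number 3 libraries, and Tuba1b moved least, by -0.04 and -0.06. What sets the number 3 libraries apart is not stated in the labels.

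Across the 6 libraries the levels of Tuba1a, Tubb3 and Tubb5 correlated with each other at Pearson's r of 0.66 to 0.99, and Tuba1c, Tuba4a, Tubb2a, Tubb4b and Tubb6 at 0.70 to 0.98. Between these sets r ran from -0.98 to -0.31. Tuba1b, though also lowest in library 3 of both groups, was in neither set. Its r ran from 0.36 with Tubb2a to 0.73 with Tuba1c in the second set. With the first set it ran from -0.34 with Tubb3 to 0.16 with Tubb5, so including Tuba1b would widen both ranges. These values describe 6 libraries that share the spread along the leading component, and the sets were formed after the levels were seen.

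**Figure D3:**
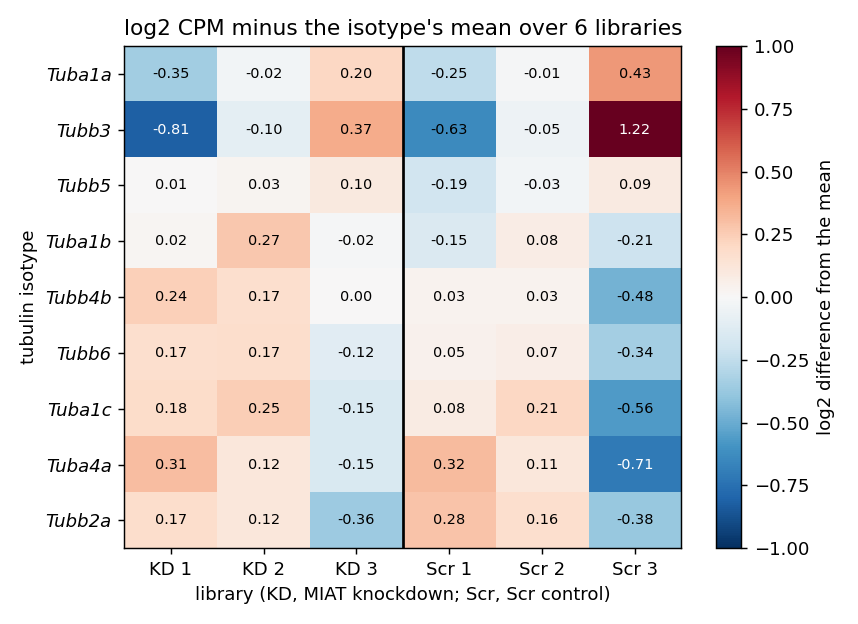
Log2 CPM of the 9 tested isotypes in each library minus the isotype's mean over 6 libraries, red above and blue below, with knockdown libraries left of control libraries. Tubb3 spans the widest range, with -0.81 in knockdown library 1 and 1.22 in control library 3, and Tuba4a is at -0.71 in control library 3.

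The summed tubulin mRNA was close between the groups. The 10 isotypes came to 3459.9 CPM, 3651 CPM and 3435 CPM in the knockdown libraries, against 3166 CPM, 3465 CPM and 3263 CPM in the control libraries. Only control library 2 exceeded any knockdown library. The log2 difference was 0.09, with a two-sided exact permutation p of 0.3, where 3 against 3 libraries cannot give less than 0.1. It was 0.13, 0.08 and 0.07 within pairs, with a sign-flip exact p of 0.25, the smallest that 3 pairs allow. Scaled by total counts the difference was 0.20 and the groups did not overlap, while the all-gene median was 0.094 under this scaling and -0.014 under TMM.

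The alpha and beta pools varied less than single isotypes such as Tubb3 did. The 4 alpha-tubulins summed to 1287 CPM, 1455 CPM and 1293.5 CPM in knockdown libraries and 1227 CPM, 1377 CPM and 1202 CPM in control libraries. The 6 beta-tubulins summed to 2173 CPM, 2196 CPM and 2141 CPM in knockdown libraries and 1939 CPM, 2088 CPM and 2061 CPM in control libraries, a log2 difference of 0.10 with no overlap (exact permutation p = 0.1, the smallest possible). Per length, alpha-tubulin mRNA was 0.728, 0.820 and 0.760 times beta-tubulin mRNA in knockdown libraries and 0.773, 0.818 and 0.744 times in control libraries. Neither group stood to one side in this ratio.

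Within the pools the make-up followed the library number. Tuba1a made up 22.8%, 25.2% and 33.3% of the alpha-tubulin FPKM in knockdown libraries and 25.7%, 26.9% and 41.8% in control libraries. Tuba1c was at 36.5%, 33.6% and 28.7% in knockdown libraries and 35.7%, 34.6% and 23.2% in control libraries. Tuba1b held 35.5%, 37.3% and 34.4% in knockdown libraries and 33.3%, 34.4% and 32.3% in control libraries, 2.40 percentage points more in knockdown libraries on average. Its share was higher by 2.26, 2.89 and 2.06 points within the pairs.

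In the beta pool, Tubb5 held 47.1%, 47.4% and 52.0% in knockdown libraries and 45.7%, 48.0% and 54.2% in control libraries. Tubb3 took 2.09%, 3.40% and 4.91% in knockdown libraries and 2.64%, 3.71% and 9.32% in control libraries. Tubb4b took 22.5%, 21.2% and 19.7% in knockdown libraries and 21.7%, 20.3% and 14.9% in control libraries. Control library 3 had the largest Tubb3 share and the smallest Tubb4b share of the 6. Within pairs, Tubb4b also held a larger share in 3 of 3 knockdown libraries, by 0.794, 0.871 and 4.82 points, and Tuba1a, Tubb2a and Tubb3 a smaller share in 3 of 3. All 10 shares overlapped between the groups, with exact two-sided permutation p from 0.2 for Tuba1b to 1.0 for Tuba4a and Benjamini-Hochberg adjusted values of at least 0.889, in a design that cannot go below an unadjusted 0.1, or 0.25 over pairs, and so cannot show that any share differed or did not.

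**Figure D4:**
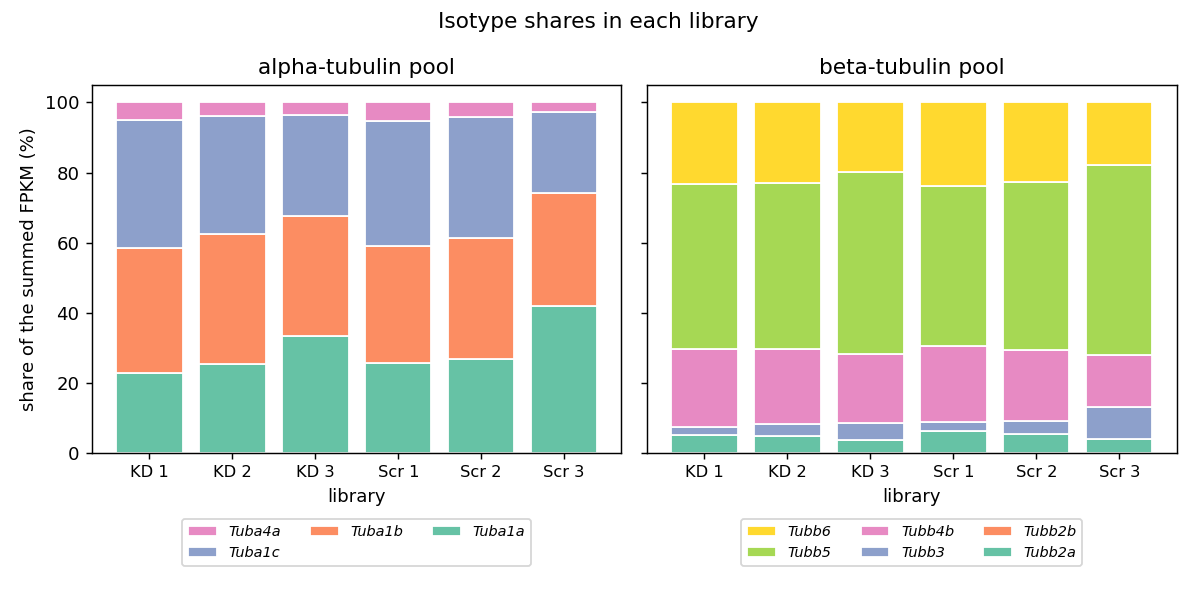
Share of each isotype in the summed FPKM of the 4 alpha-tubulins (left) and 6 beta-tubulins (right), 1 stacked bar per library from 0 to 100%, knockdown libraries left of control libraries. Tuba1a reaches 41.8% and Tubb3 9.32% in control library 3, and Tubb2b is too small to see.

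The 10 promoter windows share some letters. CCAAT, the motif bound by NF-Y, was present on either strand in 8 of the 10 and in 37.5% of all 33469 RefSeq windows of the same length, and absent from those of Tuba4a and Tubb2a. GGGCGG, the GC box, was present in 9 of the 10 and in 33.1% of all windows. TATAA was present in 6 and in 26.2% of all. TTTGAA, the core of the CHR element of cell cycle genes, was present in 2, Tuba1c and Tubb4b, and in 18.3% of all. The background took all RefSeq windows, whether or not the gene was expressed here, so it is not matched to the isotypes. These are matches of letters, and binding was not measured.

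Genes that act on tubulin were read as 9 lists in the same block fit, against the 10.5% of all genes that rose and the 11.1% that fell, and without the block 0 genes of every list passed in edgeR. Of the partners that make tubulin, 13 of 15 tested had a positive log2 fold change, as had 6511 of all 13423 tested genes. Of 15 tested folding cofactors and prefoldin subunits, which bring new alpha- and beta-tubulin together, 4 rose, 1 fell and 10 did not pass, with a median log2 fold change of 0.09. Pfdn4, a prefoldin subunit, had 36.1, 36.2 and 37.9 CPM in knockdown libraries and 31.1, 28.8 and 28.4 CPM in control libraries, entirely higher, and rose 1.25-fold. Tbcc, which triggers release of the finished dimer, rose 1.22-fold (edgeR with the block, adjusted p = 0.0474). With the block in DESeq2 neither Pfdn4 nor Tbcc passed (adjusted p = 0.102 and 0.281). That fit called 0 of the 15 higher, against 661 of all genes. Tbcd, the cofactor that holds beta-tubulin, fell to 69.2, 85.9 and 86.5 CPM in knockdown libraries, against 93.9, 101 and 114 CPM in control libraries (edgeR with the block, log2 fold change -0.35, adjusted p = 0.00708). With the gene-length correction and block 0 rose and 1 fell, against 1279 and 1050 of all 13423 genes. Without pair 1 and without pair 2 the risers were 1 and 0, against 530 of 13375 and 348 of 13607 genes.

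Of 11 genes of tubulin mRNA autoregulation, which are Ttc5, the reader of the nascent tubulin chain, Scaper and subunits of the CCR4-NOT deadenylase, 1 fell and 10 did not pass. Cnot1, the CCR4-NOT scaffold, fell to 191 ± 11.3 CPM in knockdown libraries, against 228 ± 3.73 CPM in control libraries. With the gene-length correction and block this call ended (log2 fold change -0.12, edgeR adjusted p = 0.208). In that fit 2 others were higher, against 1279 of all 13423 genes. The Cnot1 call also ended without pair 1 (-0.26) and without pair 2 (-0.28).

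Of 13 genes of the gamma-tubulin ring complex and its anchors, which start new microtubules, 0 passed in the edgeR block fit. Akap9, the most abundant, averaged 86.5 ± 4.44 CPM in knockdown libraries and 101 ± 9.06 CPM in control libraries. Its adjusted p was 0.0501 in that fit, and its log2 fold change of -0.22 turned to 0.05 with the gene-length correction. With the block it passed in limma-voom (adjusted p = 0.0475) and in edgeR with DESeq2 size factors (0.0410) or the 1 CPM filter (0.0444). Each of these fits called 2 of the 13 lower, beside 1602 and 1606 of 13423 genes and 1518 of 12635 genes. Akap9 did not pass with the block in DESeq2 (adjusted p = 0.116) or in edgeR with total count scaling (0.217). Of 3 tested genes among the rarer tubulins 0 passed, and Tubd1, delta-tubulin, averaged 9.39 ± 0.679 CPM in knockdown and 8.46 ± 1.67 CPM in control libraries.

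Among 17 enzymes that modify tubulin, 1 rose, 3 fell and 13 did not pass. Agbl3, a deglutamylase, had 11.5, 7.41 and 6.64 CPM in knockdown libraries and 31.5, 19.0 and 10.3 CPM in control libraries, lower in every pair though the groups overlapped. It fell by a log2 fold change of 1.18 (edgeR with the block, adjusted p = 0.00316). Atat1, which acetylates alpha-tubulin inside the microtubule, fell by 0.38, and Ttll5, a polyglutamylase, by 0.43. The Atat1 and Ttll5 calls ended without pair 1 (-0.42 and -0.39) and without pair 2 (-0.45 and -0.50), the Atat1 call also without pair 3 (-0.25), and the Ttll5 call also with the gene-length correction and block (-0.32).

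Of 29 proteins that bind the lattice or the plus end, 2 rose, 6 fell and 21 did not pass. Map1a, a microtubule-stabilizing protein, fell to 251 ± 31.0 CPM in knockdown libraries, against 365 ± 56.8 CPM in control libraries. Macf1, which links microtubules to actin, had 479.6, 501 and 399.5 CPM in knockdown libraries and 681, 657 and 640.0 CPM in control libraries, and fell by a log2 fold change of 0.53. Dclk1, a doublecortin-family kinase, fell by 0.39. With the gene-length correction and block 3 of the 29 fell, against 1050 of all 13423 genes. Macf1 at -0.18 (edgeR adjusted p = 0.116) and Dclk1 at -0.19 (0.0561) were then no longer past the threshold. Without pair 2, 4 fell and 0 rose, against 388 and 348 of all 13607 genes tested there.

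Dynein, the minus-end motor, changed in its heavy chain. Dync1h1 had 493, 521 and 471 CPM in knockdown libraries, against 779.7, 771 and 835 CPM in control libraries, and fell by a log2 fold change of 0.69 (edgeR with the block, adjusted p = 0.00125). The groups were far apart, and the call held with the gene-length correction and block (-0.47, adjusted p = 0.00368). The other 21 of 22 tested dynein and dynactin genes did not pass.

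Many genes of the spindle, which is built from tubulin, rose. Among the 18 tested spindle microtubule proteins there were 13 that rose and 0 that fell, while 5 did not pass, and the list had a median log2 fold change of 0.44 against 0.15 for the isotypes, a difference that was not tested. Haus8, a subunit of the augmin complex that branches spindle microtubules, had 18.7, 18.9 and 17.3 CPM in knockdown libraries and 14.1, 10.8 and 11.6 CPM in control libraries and rose 1.51-fold. Haus4, of the same complex, rose 1.48-fold and the kinesin Kif4a 1.46-fold. Without pair 2, 6 of the 18 rose, against 348 of all 13607 genes tested there, and the Haus8 call ended (0.49). Of 12 destabilizing and severing proteins 2 rose and 10 did not pass. Stmn1, stathmin, which binds free tubulin dimers, had 110.0, 105 and 97.8 CPM in knockdown libraries and 67.9, 76.1 and 78.5 CPM in control libraries and rose 1.41-fold (edgeR with the block, adjusted p = 0.00472). Kif2c, a kinesin that takes microtubule ends apart, rose 1.42-fold, a call that ended without pair 1 (0.40).

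**Figure D5:**
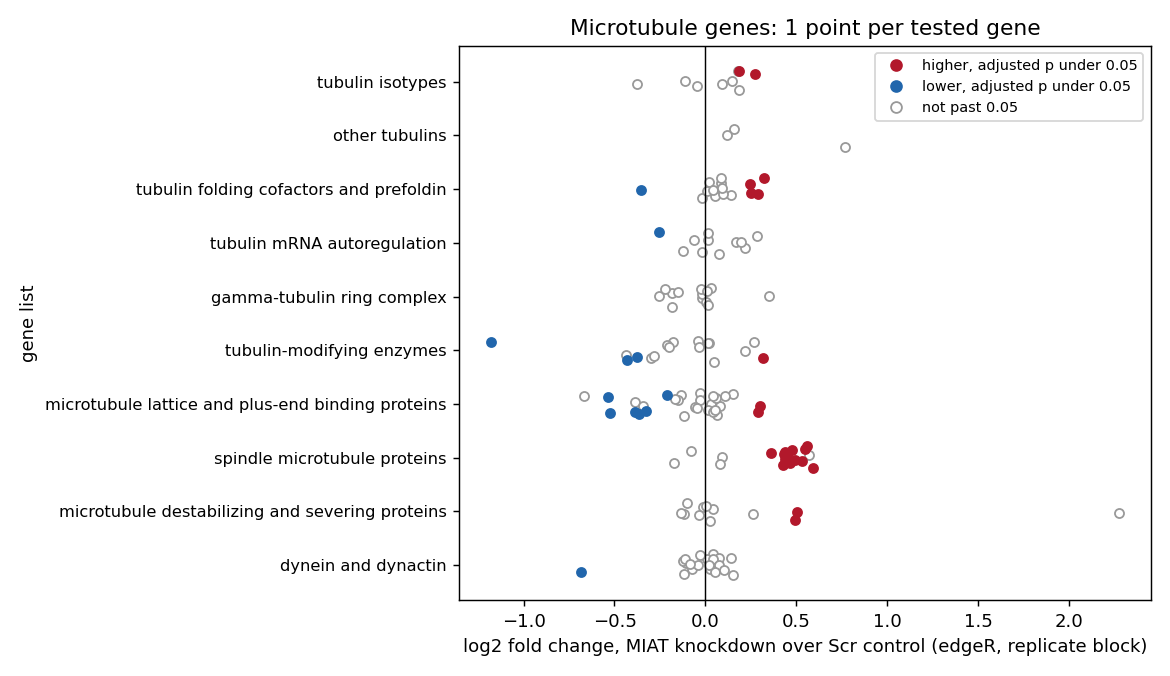
Log2 fold change of MIAT knockdown over Scr control (edgeR with replicate block) for each tested gene of 10 lists of microtubule genes, red and blue where the adjusted p was under 0.05. Spindle proteins hold 13 red points of 18, the isotypes 2 of 9.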

How the data were processed

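The authors deposited raw counts per gene symbol and FPKM values for 6 libraries. In the deposited tables, 100% of FPKM values above 0 equalled the count over 1 length per gene and the library total, within a relative tolerance of 1e-06. The sources used here do not give the aligner, counter, strand setting or genome build, so these are not stated. The members and lists were chosen with earlier results of these data known.

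Counts were filtered with filterByExpr, scaled with TMM and tested in edgeR 4.0.16 (R 4.3.3), without and with the library number as a block. Levels are CPM after TMM scaling, and pair differences add 0.1 CPM. Alternatives were DESeq2 1.42.0, limma 3.58.1 (voom, or trend on log2(FPKM + 1) and log2(FPKM + 0.1)), other scalings and filters, a loess correction for gene length (span 0.5), and leaving out libraries or pairs. DESeq2 was given the same filtered genes. The edgeR fits were tested on simulated data with known changes and a shift shared by same-numbered libraries. There the block fit recovered more of the changed genes than the fit without the block, but its share of false calls exceeded the nominal false discovery rate. Counts of calls from the block fit may therefore be too high. The simulation changed far fewer genes than were called here and used a shift of set size. Its share of false calls therefore need not hold for these data.

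After removal of group means, same-numbered libraries correlated at 0.72, 0.60 and 0.65 across genes, and differently numbered ones at -0.59 to -0.055. Removing the means makes the deviations of a group cancel for each gene. The negative values therefore follow from the positive ones and add no separate evidence. The pairing comes from the same-numbered values and the shared numbers, not from the labels. The block fit has 2 residual degrees of freedom, against 4. Libraries within a group differed beyond sampling noise (chi-square over degrees of freedom, 20.6 to 83.6).

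All 10 symbols matched RefSeq of GRCr8, which served for names, neighbourhood and promoter windows only. There the Tuba1c interval contains Tuba1a and Tuba1b, and 26 alpha- and beta-tubulin pseudogenes are annotated. Reads of near-identical isotypes can be shared or misplaced, so the split between Tuba1a, Tuba1b and Tuba1c, and between Tubb2a and Tubb2b, is uncertain. The named genes are all 10 isotypes and, per list, up to 3 members past the threshold, taken by absolute fold change, or else the most abundant member. For likeness, genes of at least 5 CPM were ranked by correlation with the summed isotype CPM.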

Additional observations from a re-analysis of the deposited data

How the results depend on the processing

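With 3 libraries per group and 2 residual degrees of freedom in the block fit, small changes lie near the limit of this design. The number of genes called at an adjusted p under 0.05 was 0 without the block in edgeR, limma-voom and limma on FPKM, and 699 in DESeq2. With the replicate block it was 2898 in edgeR, 1590 in DESeq2, 3051 in limma-voom, 2857 (2392 higher) and 2932 (2435 higher) in limma on log2(FPKM + 1) and log2(FPKM + 0.1), 2961 with DESeq2 size factors, 3641 with total count scaling (2822 higher and 819 lower, against 1412 and 1486 with TMM), 3128 with no low-count filter, 2909 with a filter of 1 CPM in 3 libraries and 2329 with the gene-length correction. Without pair 1, 2 or 3 it was 1195, 736 and 4124, and leaving out a library without the block gave 0 to 0. Isotypes called were 0 in all fits without the block. With the replicate block they were 2 in edgeR, limma-voom and the 1 CPM filter, 1 in DESeq2 and with DESeq2 size factors, 4 in both limma fits on FPKM, 5 with total count scaling and 0 with the gene-length correction. With no low-count filter they were 3, the third being Tubb3, lower. Leaving out a pair gave 0 to 2. Of the 13 block fits, Tubb4b was called in 10 and Tuba1b in 8. The all-gene median log2 fold change was 0.094 with total counts, against -0.014 with TMM. The summed isotype level differed by 0.09, by 0.20 with total counts and by 0.20 in FPKM.

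Leaving out 1 library at a time without the block turned the sign of 5 isotypes, with log2 fold changes of -0.27 to 0.088 for Tuba1a, -0.044 to 0.30 for Tuba1c, -0.12 to 0.34 for Tuba4a, -0.23 to 0.097 for Tubb2a and -0.83 to 0.21 for Tubb3. Control library 3 was the library left out for Tuba1a (also knockdown library 1, 0.013), Tuba1c, Tuba4a and Tubb3, and knockdown library 3 or control library 1 (0.075) for Tubb2a. Without pair 3 the block fit put Tuba4a at -0.0036. Tubb2a came to 0.0595 and 0.0610 in limma on log2(FPKM + 1) and log2(FPKM + 0.1), in each case both with and without the block, and total counts gave 0.0458 without and 0.0590 with it. Akap9 came to 0.0363 without and 0.0451 with the block after the gene-length correction. Causes were not tested.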

Other observations

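The genes whose level followed the summed isotype CPM most closely over the 6 libraries were Tle3, Fam118a, Gpn3, Zfp207 and Dnajc3, each at Pearson's r of 0.99. This is a description of 6 libraries, chosen as the highest of 10469 genes of at least 5 CPM, and so many candidates over so few libraries give high values. Tle3, a transcriptional corepressor, had 59.0, 66.0 and 58.5 CPM in knockdown libraries and 46.3, 57.0 and 51.6 CPM in control libraries, and it rose 1.19-fold with the block. Zfp207, which encodes the spindle protein BuGZ, had 140.5, 149.8 and 138 CPM in knockdown libraries and 122, 137 and 125 CPM in control libraries. Both were entirely higher in knockdown libraries, as were 14.2% of all tested genes.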
